A study of Arabidopsis thaliana with 18 samples.

Results

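Histone H3 acetylated at lysine 9 (H3K9ac) and at lysine 14 (H3K14ac) was compared in wild-type (WT) Arabidopsis seedlings, library by library and gene by gene. The WT libraries were chosen by their genotype label, and they are 3 of the 9 peak lists of the series: H3K9ac replicates 1 and 2, called biological in the labels, and 1 H3K14ac library. The series has 18 samples in all, of which 9 are inputs that were not analysed here. The 10-day-old seedlings, of the Columbia (Col) ecotype, had been kept at 23 °C in long days (light for 16 h, dark for 8 h). Chromatin came from whole seedlings, was cross-linked with formaldehyde and was precipitated with 1 antibody for each mark. The remaining 6 peak lists, 2 for H3K9ac and 1 for H3K14ac in each of 2 mutants, were used only to see whether a WT pattern recurred. Those mutants are hda9-1, affected in the histone deacetylase HDA9 and written "hdac" in its sample titles, and pwr-2, affected in POWERDRESS, a SANT-domain protein. H3K14ac had 1 WT library, so counts of genes and peaks are given without a test, and the H3K9ac pair serves as the measure of how far replicates of 1 mark differ. The labels list inputs numbered like the H3K9ac replicates and a further, unnumbered input per genotype beside H3K14ac, so the mark and a separate set of samples cannot be told apart.

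Lysine acetylation neutralises the positive charge of the histone tail and is found at the start of transcribed genes in plants and animals. H3K9ac and H3K14ac are both written by GCN5-type acetyltransferases and read by bromodomain proteins, and both are removed by histone deacetylases. In plant seedlings H3K9ac is best known from light-regulated genes.

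The 3 peak lists differed in size and in reads. H3K9ac replicate 1 had 11653 peaks over 23.1 Mb, replicate 2 had 12650 peaks over 23.7 Mb, and H3K14ac had 11141 peaks over 14.9 Mb. The deposited count of reads inside peaks was 1.95 M (M for mega) in H3K9ac replicate 1, 2.22 M in replicate 2 and 0.668 M in H3K14ac. H3K14ac thus had the fewest reads in peaks. The files do not give all mapped reads, so sequencing depth and enrichment cannot be told apart, and a gene without an H3K14ac peak is one where none was called in this library. Median read density in peaks was 88.3 and 97.5 reads per kb for H3K9ac and 48.0 for H3K14ac. Whether the antibodies bind with equal strength was not tested. Whole seedlings hold many cell types, so a mark in fewer cells and a weaker mark in every cell cannot be told apart.

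H3K14ac peaks were narrower than H3K9ac peaks. The median width was 1400 bp in both H3K9ac libraries and 1200 bp in the H3K14ac library. Peaks of 600 bp or less made up 9.86% and 11.6% of the H3K9ac lists and 25.2% of the H3K14ac list. Peaks of 3000 bp or more made up 18.2% and 16.0% of the H3K9ac peaks and 5.82% of the H3K14ac peaks. The widest peak was 21200 bp in H3K9ac replicate 1, 15400 bp in replicate 2 and 8200 bp for H3K14ac. The H3K9ac replicates thus resembled each other in width more than either resembled H3K14ac. Where each library was reduced to its 10 Mb of peaks with the highest read density, the median was 1000 bp for both marks, so the difference did not hold there. Density fell with width in all 3 libraries (Spearman correlations -0.586, -0.524 and -0.745), so this cut favours narrow peaks. It also removed more of the H3K9ac lists (23.1 and 23.7 Mb) than of the H3K14ac list (14.9 Mb). It therefore cannot show whether widths differ at equal covered length. With the weakest 25% of peaks of each library left out, the medians were 1200 bp for H3K9ac and 800 bp for H3K14ac.

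**Figure D1:**
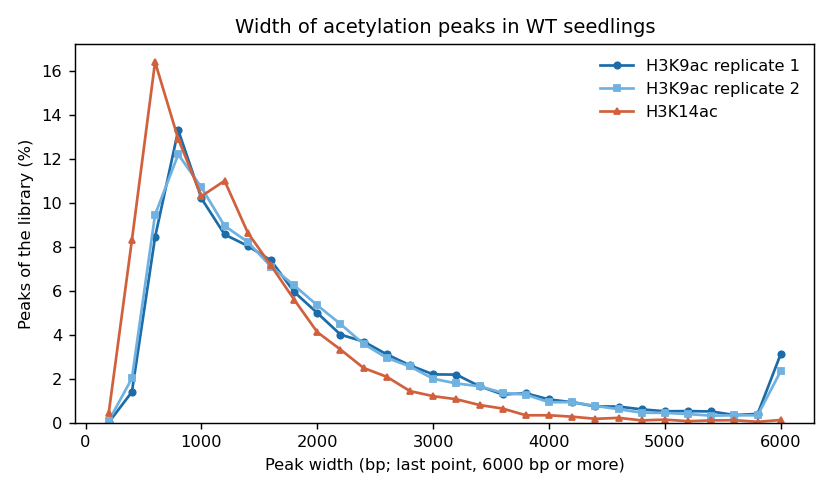
Share of peaks (%, y axis) by peak width (bp, x axis, steps of 200 bp) in the 3 WT libraries, 1 line per library, with all peaks of 6000 bp or more at the last point. The H3K14ac line lies above both H3K9ac lines at 600 bp or less and below them from 1800 bp on.

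Both marks lay mainly in genes, H3K14ac more so. Genes take up 64.1% of the genome span, and they held 78.7% and 84.9% of the bases in H3K9ac peaks and 93.4% of those in H3K14ac peaks. The sequence outside genes under peaks came to 4.94 and 3.58 Mb for H3K9ac and 0.979 Mb for H3K14ac. Peaks that touched no gene numbered 255 and 171 for H3K9ac and 48 for H3K14ac. A peak touched 2 or more protein-coding genes in 29.4% and 28.6% of cases for H3K9ac and 23.5% for H3K14ac, so neighbouring genes can share a peak and are not independent units. Both marks were sparse in the 29 of 116 bins of 1 Mb with the fewest gene bases. These bins hold 19.6% of gene bases, 8.65% and 8.15% of H3K9ac bases and 7.77% of H3K14ac bases.

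Most H3K14ac lay inside H3K9ac territory, and about as much H3K9ac lay outside H3K14ac as inside it. Of the 14.9 Mb under H3K14ac peaks, 56.0% lay in peaks of both H3K9ac libraries, 18.3% in peaks of exactly 1 and 25.7% in none. Of the 16.4 Mb under peaks of both H3K9ac libraries, 50.7% lay under H3K14ac. H3K14ac shared 9.26 Mb with H3K9ac replicate 1 and 10.1 Mb with replicate 2, which is 32.2% and 35.5% of the bases under either peak list. The H3K9ac replicates shared 53.9% of theirs. By this measure the overlap between the marks was below that between replicates of 1 mark. The H3K14ac list is shorter, which by itself lowers the measure, so the size of this gap cannot be read as a difference in placement. Of H3K14ac bases, 62.3% lay in replicate 1 and 67.9% in replicate 2. Of replicate 2 bases 69.2% lay in replicate 1, and of replicate 1 bases 70.9% lay in replicate 2. Counted this way the gap was narrower. A smaller share of each H3K9ac list lay under H3K14ac. The share of H3K14ac bases in both H3K9ac libraries was 29.8% at 10 Mb per library. The 8.32 Mb with H3K14ac and both H3K9ac libraries lay 95.9% in genes, and the 8.07 Mb with both H3K9ac libraries and no H3K14ac lay 77.7% in genes.

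Counted by peaks, 8656 of the 11141 H3K14ac peaks (77.7%) overlapped a peak of both H3K9ac libraries by at least 1 bp, 1287 (11.6%) overlapped 1 library and 1198 (10.8%) overlapped neither. The peaks with no H3K9ac had a median density of 39.2 reads per kb, against 49.0 for those with both. Among pairs in which 1 H3K14ac peak met 1 H3K9ac peak, the H3K14ac peak was the narrower in 58.6% of 7650 pairs with replicate 1 and 59.5% of 8259 pairs with replicate 2. It lay wholly inside the H3K9ac peak in 57.2% and 60% of pairs. The centres of paired peaks were a median of 300 bp apart, and those of the H3K9ac replicates 200 bp apart. Paired peaks of the marks thus sat somewhat farther apart than paired replicates.

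The wider an H3K9ac peak, the smaller the part of it under H3K14ac. In replicate 1, H3K14ac covered 65.6% of the bases of H3K9ac peaks up to 800 bp wide, 51.8% at 1000 to 1800 bp, 35.1% at 2000 to 3800 bp and 27.6% at 4000 bp or more. The same shares in replicate 2 were 64.6%, 49.4%, 38.1% and 33.2%. Between the H3K9ac replicates the shares were 86.9%, 75.9%, 64.8% and 69.1% of the peaks of replicate 1 under replicate 2, and 74.6%, 69.7%, 64.2% and 74.6% in reverse, so the widest peaks were covered no less than the next width class. The widest H3K9ac peaks often held several H3K14ac peaks: 33.7% of those of 4000 bp or more in replicate 1, and 37.4% in replicate 2, held at least 2.

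Genes were sorted by the marks at their ends. A gene was called marked if, at 1 of its ends or the other, peaks filled 50% or more of the outermost 500 bp (of the entire gene when it is shorter). Of 37899 genes on the nuclear chromosomes, 15414 were marked in H3K9ac replicate 1, 16436 in replicate 2 and 12230 in H3K14ac. A total of 9003 genes (23.8%) carried both marks, meaning H3K14ac and H3K9ac in both libraries. H3K9ac alone was found at 4413 genes (11.6%), H3K14ac alone at 1531 (4.04%) and neither mark at 17934 (47.3%). The remaining genes had H3K9ac in 1 of its 2 libraries, 1696 with H3K14ac and 3322 without. The H3K9ac replicates shared 13416 genes, 87.0% of replicate 1 and 81.6% of replicate 2.

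H3K14ac was therefore mostly found where H3K9ac was. Among genes with H3K9ac in no, 1 or 2 libraries, H3K14ac marked 7.87%, 33.8% (95% Wilson interval 32.5% to 35.1%) and 67.1% (66.3% to 67.9%), with intervals that cover counting error only. The numbers depended on how peaks were cut. At 10 Mb of the densest peaks per library, 3207 genes carried both marks, 2021 H3K9ac alone and 2953 H3K14ac alone, so the order of the one-mark groups turned. This cut does not treat the marks alike. It took more of each H3K9ac list, and H3K9ac had to hold in 2 libraries and H3K14ac in 1. Genes with H3K9ac in 1 of its 2 libraries numbered 5903 at this cut. Judged without H3K9ac replicate 2, genes with H3K14ac alone numbered 2732. Genes with both marks fell to 5770 with 80% of the window covered, 5035 with the weakest 25% of peaks left out and 3097 with 50% of the whole gene covered.

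Genes with H3K9ac alone carried it over more of their length than genes with both marks. In the 3740 protein-coding genes with H3K9ac alone, peaks covered a median of 64.6% of the gene in replicate 1 and 70.4% in replicate 2, against 48.6% and 53.0% in the 8275 with both marks. Gene length was alike, with medians of 2370 bp and 2383 bp. Peaks over the genes with H3K9ac alone had a median width of 2200 bp in both libraries, against 1600 and 1800 bp. Density hardly differed, at 84.8 and 93.8 reads per kb against 89.0 and 99.0. In the 1279 protein-coding genes with H3K14ac alone, the H3K14ac peaks had 37.9 reads per kb, against 46.4 in genes with both marks. Some genes named for 1 mark did carry a peak of the other away from their ends: an H3K14ac peak touched 1110 of the 4413 genes with H3K9ac alone (25.2%), and an H3K9ac peak of either library touched 216 of the 1531 with H3K14ac alone (14.1%).

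Each mark sat at 1 end in most genes that held a peak, and where both did, it was mostly the same end. In protein-coding genes of 2000 bp or more that held a peak, exactly 1 end was marked in 74.6% and 72.8% for H3K9ac and in 73.1% for H3K14ac. Both ends were marked in 16.9% and 18.1% for H3K9ac and 8.33% for H3K14ac. Neither end was marked in 8.53% and 9.13% for H3K9ac and in 18.6% for H3K14ac. Where both libraries of a pair marked exactly 1 end, it was the same end in 94.7% of 4307 genes for H3K9ac replicate 1 with H3K14ac and in 95.5% of 4565 for replicate 2 with H3K14ac. The H3K9ac replicates chose the same end in 97.3% of 5400 genes.

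The marks rose over the same stretch inside the gene, and H3K14ac reached less far outside it. The annotation used gives no strand, so genes were oriented by the end that all 4 mutant H3K9ac libraries marked while the other end was bare, which gave 4589 genes. Among the 1559 of these with no neighbouring gene within 1000 bp of that end, the share of genes in a peak was highest 400 bp inside the gene in all 3 WT libraries, at 84.9% and 90.1% for H3K9ac and 66.0% for H3K14ac. At the gene end itself the shares were 36.6%, 28.8% and 12.9%. At 500 bp outside the gene they were 18.4%, 11.9% and 3.27%. At 1000 bp inside they were 48.0%, 55.0% and 36.8%. The H3K14ac libraries of hda9-1 and pwr-2, with more reads in peaks, reached 82.5% and 81.8% at their highest, and 3.27% and 4.11% at 500 bp outside. Since H3K9ac chose the orientation, the height and place of the WT H3K9ac lines are not independent of it, whereas H3K14ac was not used.

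**Figure D2:**
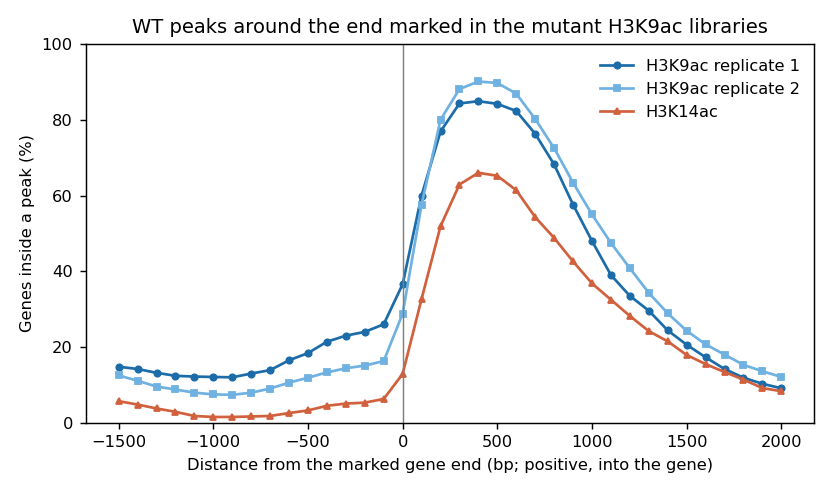
Share of genes inside a peak (%, y axis) by distance from the marked gene end (bp, x axis, positive into the gene) in the 3 WT libraries, over 1559 genes of 2000 bp or more with no neighbour within 1000 bp of that end. All 3 lines peak 400 bp inside the gene, and outside it the H3K14ac line lies below both H3K9ac lines.

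The classes of RNA gene differed in which mark they carried. Small nucleolar RNAs (snoRNAs), which guide chemical modification of ribosomal RNA, were marked by H3K9ac in 81.2% and 79.8% of 287 genes and by H3K14ac in 28.6%. Of these, 143 carried H3K9ac alone, 76 both marks and 2 H3K14ac alone. The H3K14ac libraries of hda9-1 and pwr-2, with more reads in peaks, marked 44.6% and 43.9% of snoRNA genes. Of protein-coding genes they marked 47.3% and 48.5%. MicroRNA genes, whose products silence target messenger RNAs, were marked in 28.8%, 28.2% and 11.3% of 326 genes in H3K9ac replicate 1, replicate 2 and H3K14ac. For long non-coding RNAs the shares were 28.1%, 28.7% and 18.1% of 3480 genes, and for protein-coding genes 49.5%, 53.0% and 40.3% of 27444. Among genes with H3K9ac in both libraries, H3K14ac was present at 34.7% of 219 snoRNA genes (28.7% to 41.2%), 35.1% of 77 microRNA genes (25.3% to 46.2%) and 68.9% of 12015 protein-coding genes (68.0% to 69.7%). Many of these RNA genes are short and clustered, so several can lie under 1 peak, and the intervals cover counting error only. Pseudogenes were seldom marked, at 1.86%, 2.43% and 2.25% of 3917.

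Photosynthesis genes carried H3K9ac without H3K14ac more often than not. All 24 listed genes were marked in both H3K9ac libraries, and 5 of 24 (20.8%, 9.24% to 40.5%) were marked by H3K14ac. Of all protein-coding genes with H3K9ac in both libraries it was 68.9%. The interval covers counting error only, within 1 H3K14ac library. Some of the listed genes share a peak, so it is not a test of the difference. RBCS1A encodes a small subunit of Rubisco, the carbon-fixing enzyme. All 1510 bp of RBCS1A lay under a peak in both H3K9ac libraries (chromosome 1, 25045401 to 25049800 in replicate 1, TAIR10) and 0 bp lay under H3K14ac. LHCB3, a light-harvesting chlorophyll-binding protein of photosystem II, was covered over its full 1404 bp by H3K9ac in both libraries (chromosome 5, 22035401 to 22040000 in replicate 1) and over 0 bp by H3K14ac. LHCB6, another antenna protein, had 1419 bp in each H3K9ac library and 0 bp of H3K14ac. LHCA1 and LHCA3, antenna proteins of photosystem I, had 1673 bp and 1698 bp in each H3K9ac library and 0 bp of H3K14ac. In these genes H3K9ac thus spanned the whole gene in both libraries.

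The 5 photosynthesis genes with both marks were PSAF, PSBO2, GAPB, LHCB5 and LHCB4.1. PSBO2, an oxygen-evolving complex protein, was covered over 1508 bp in both H3K9ac libraries and over 1200 bp by H3K14ac. PSAF, a photosystem I subunit, had 1341, 1341 and 941 bp in H3K9ac replicate 1, replicate 2 and H3K14ac. GAPB, a glyceraldehyde-3-phosphate dehydrogenase of the chloroplast, had 848, 1448 and 1048 bp. RCA, which activates Rubisco, and PRK, phosphoribulokinase, had H3K14ac over 1400 and 1600 bp inside the gene that did not fill an end. Thus 17 of the 24 had H3K9ac and no H3K14ac peak anywhere in the gene. The count with H3K9ac alone was 19 and ranged from 16 to 20 over 8 other ways of cutting or counting peaks.

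Reads in H3K14ac peaks and H3K9ac density were set beside this result. The H3K14ac libraries of hda9-1 and pwr-2, with 0.875 and 1.09 M reads in peaks, each marked 5 of the 24 genes. In at least 1 of the 3 H3K14ac libraries, 9 of the 24 were marked. Of all protein-coding genes, the hda9-1 and pwr-2 libraries marked 47.3% and 48.5%, and 15706 of 27444 were marked in at least 1 of the 3. H3K9ac density over the 24 genes ran from 69.7 reads per kb at LHCA2 to 138.2 at PSBO2 in replicate 1. Over protein-coding genes with H3K9ac in both libraries, H3K14ac marked 58.8% of the 25% with the lowest H3K9ac density and 73.1% of the 25% with the highest. RBCS1B, RBCS2B and RBCS3B are near-identical copies that lie under 1 peak in replicate 1 (chromosome 5, 15376401 to 15385200), and CAB1 and CAB2 are near-identical neighbours. No source used here says how reads that map to several copies were treated, so the values of these copies are uncertain.

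**Figure D3:**
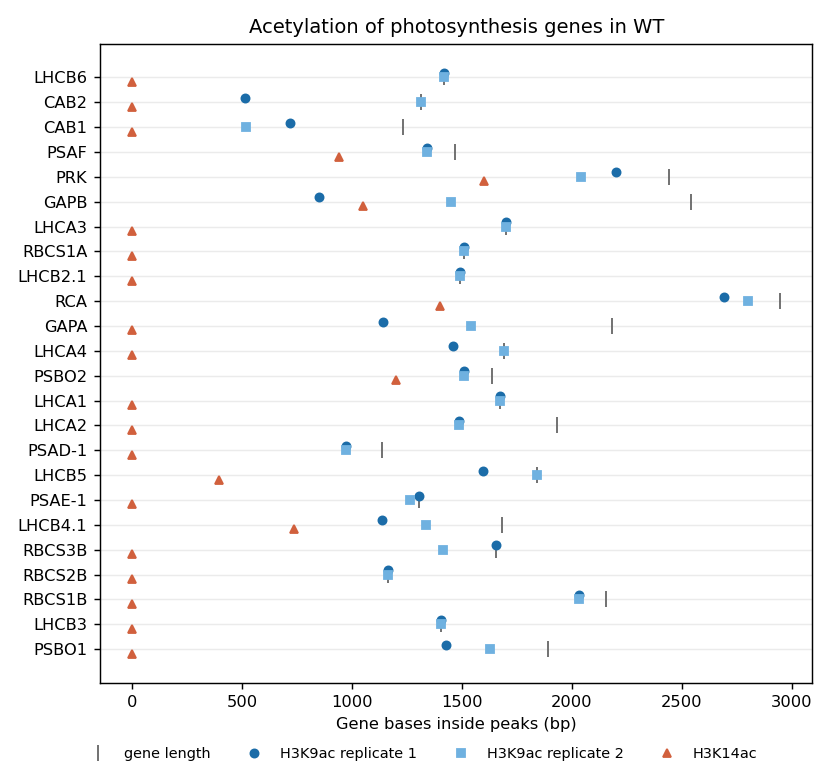
Gene bases inside peaks (bp, x axis) for the 24 photosynthesis genes (y axis), 1 point per WT library, with a vertical tick at the gene's length. The H3K14ac point lies at 0 in 17 genes, and every gene has both H3K9ac points above 0.

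Of 16 circadian clock genes, 13 were marked in each H3K9ac library and 8 by H3K14ac, with 6 carrying both marks and 6 H3K9ac alone. The share of those with H3K9ac that also had H3K14ac was 50% (25.4% to 74.6%), against 68.9% of all protein-coding genes. That interval covers counting error only, and it holds the 68.9%. The morning MYB factors CCA1 and LHY had H3K9ac alone: CCA1 was covered over 2010 and 2800 bp by H3K9ac and LHY over 3800 and 1800 bp, both with 0 bp of H3K14ac. PRR9 and PRR5, pseudo-response regulators, also had H3K9ac alone, at 1594 and 1400 bp and at 997 and 597 bp. TOC1, PRR7, GI, ZTL, RVE8 and PCL1 carried both marks. GI, an evening gene, had 1390 and 600 bp of H3K9ac and 2390 bp of H3K14ac, and TOC1 had 950 and 350 bp and 1200 bp. In hda9-1 and pwr-2, CCA1, LHY and PRR9 again had 0 bp of H3K14ac, but so had TOC1 and PCL1, which were marked in WT. PRR5 did not keep its pattern: it had 2146 bp of H3K14ac in pwr-2 and no H3K9ac mark in hda9-1, with 197 and 0 bp. No source used here gives the time of harvest.

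Among acetyltransferase genes of WT, H3K14ac was at least as frequent as H3K9ac, though the H3K9ac replicates differed. Of 12 genes, 5 (41.7%) and 9 (75%) were marked in the H3K9ac libraries and 9 (75%) by H3K14ac. Over all protein-coding genes the shares were 49.5%, 53.0% and 40.3%. H3K14ac marked 11 in hda9-1, against 10 and 10 for H3K9ac, and 8 in pwr-2, against 8 and 10. In the same order these mutant libraries marked 47.3%, 57.4%, 60.2%, 48.5%, 51.7% and 56.8% of all protein-coding genes. In WT none of the 12 carried H3K9ac alone (13.6% of all protein-coding genes). HAC1, HAC5, HAC12, HAG1 and HAM2 carried both marks (41.7%, against 30.2%). HAG1 encodes the GCN5 acetyltransferase and had 995 and 1595 bp of H3K9ac and 795 bp of H3K14ac. HAF2, a TAF1-type gene, had 180 and 2780 bp of H3K9ac and 4780 bp of H3K14ac. Of 18 deacetylase genes, 14 (77.8%) and 11 (61.1%) were marked by H3K9ac and 13 (72.2%) by H3K14ac. Both marks were carried by 8 (44.4%), against 30.2% of all protein-coding genes. HD1, the gene of the deacetylase HDA19, had H3K14ac alone, over 2323 bp with 0 bp in both H3K9ac libraries. In the mutants H3K9ac marked HD1 in 3 of 4 libraries, over 400, 523 and 523 bp. The plant-specific HD2-type genes HDT4, HD2B and HD2C had H3K9ac alone, at 1595 and 1395 bp, 1400 and 600 bp, and 1742 and 2142 bp. In hda9-1 and pwr-2 H3K14ac marked HDT4 (600 and 800 bp) and HD2C (542 and 1231 bp), and HD2B stayed at 0 bp. HDA9 itself, the gene affected in hda9-1, had 600 and 809 bp of H3K9ac and 600 bp of H3K14ac in WT. A peak over HDA9 does not check the genotype label of hda9-1. The closely related copies hda10 and hda17 are uncertain for the reason given for the Rubisco genes.

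The labelled tissue, whole seedlings, was checked with genes of other stages and organs, beside the 36.6% of all protein-coding genes that carried neither mark. LEC1, LEC2, ABI3 and FUS3, regulators of seed maturation, had 0 bp in all 3 libraries. Of 14 seed storage and oleosin genes, 11 carried neither mark, 2 (OLEO4 and AT1G03890) carried H3K14ac alone, and OLEO2 was marked in H3K9ac replicate 2 only. Of 13 floral organ identity genes 8 (61.5%) had neither mark. Of 15 pollen genes 7 (46.7%) had neither, nearer to the share of all genes, and ANX1 and TIP5;1 carried both. Of 12 drought and cold genes 10 carried neither mark at an end, and the exceptions were RD22, with H3K9ac alone, and COR47, with H3K9ac in 1 library.

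Flowering time genes fell into all groups. SVP, a repressor of flowering, had 3754 and 2754 bp of H3K9ac and 0 bp of H3K14ac, and AGL20 (SOC1), an activator, had 3621 and 3000 bp and 0 bp. CO, the photoperiod regulator, had 239 bp in each H3K9ac library and 2639 bp of H3K14ac, and FD, the bZIP partner of FT, had 0 bp of H3K9ac and 800 bp of H3K14ac. In the mutants H3K9ac marked CO in all 4 libraries and FD in 2. H3K14ac had 0 bp over SVP in both mutants and 1000 bp over AGL20 in both, which filled less than the required share of either end. FT and FLC had 0 bp of either mark. The remaining lists stand beside the 49.5%, 53.0% and 40.3% of all protein-coding genes marked in H3K9ac replicate 1, replicate 2 and H3K14ac. Among 14 heat shock genes the shares were 21.4%, 21.4% and 35.7%. Among 12 immunity genes they were 50%, 66.7% and 33.3%, near those of all genes, and the receptors FLS2 and RPM1 and the regulators EDS1 and PAD4 carried both marks. Among 17 housekeeping genes they were 82.4%, 100% and 64.7%, with 10 carrying both marks. ACT7 had 1800 bp in every library.

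**Figure D4:**
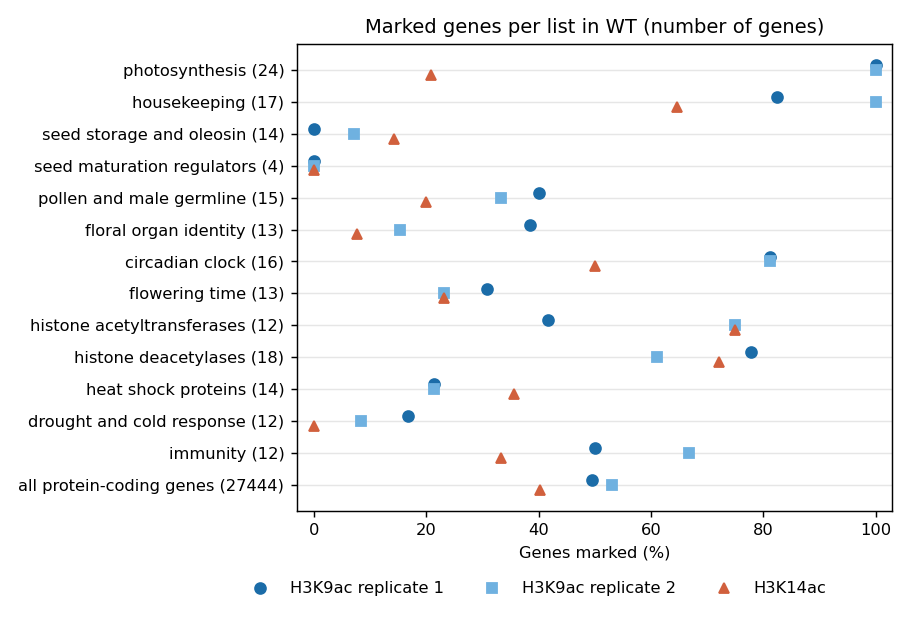
Share of genes marked (%, x axis) in each WT library for the 13 gene lists and for all protein-coding genes (y axis, number of genes in brackets), 1 point per library. The gap between H3K9ac and H3K14ac is widest for the photosynthesis genes, at 100%, 100% and 20.8%.

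Gene families, found by their symbols, ranged widely in how often H3K9ac came with H3K14ac. Of 37899 genes 10871 have a symbol, so a family here is its named members and may be a part of the whole. It held 40 pentatricopeptide repeat genes, 19 core histone genes and 16 SAUR genes. Among members with H3K9ac in both libraries, H3K14ac was present at 22 of 23 pentatricopeptide repeat genes, which act on organelle RNA, at 11 of 12 core histone genes and at 66 of 78 embryo-defective (EMB) genes, whose loss arrests the embryo. The share was 30 of 42 for ribosomal protein genes, near the 68.9% of all protein-coding genes. It was 1 of 7 for SAUR genes, 4 of 12 for Aux/IAA repressors and 5 of 12 for auxin response factors. Among transcription factor families it was 9 of 22 for MYB, 11 of 20 for WRKY (34.2% to 74.2%) and 10 of 16 for NAC genes (38.6% to 81.5%). The Wilson intervals were 79.0% to 99.2% for the pentatricopeptide repeat genes and 23.3% to 61.3% for the MYB genes. For the small families they were wide, such as 2.57% to 51.3% for SAUR genes. All of them cover counting error only. Of 78 AGAMOUS-like MADS genes, 2 (2.56%) carried both marks, 6 (7.69%) H3K9ac alone, 8 (10.3%) H3K14ac alone and 51 (65.4%) neither. Of 236 cytochrome P450 genes, 38 (16.1%) carried both, 30 (12.7%) H3K9ac alone, 19 (8.05%) H3K14ac alone and 101 (42.8%) neither. Over all protein-coding genes these shares were 30.2%, 13.6%, 4.66% and 36.6%, so H3K9ac alone was near that of all genes for P450. A scan of 22 symbol stems with at least 15 members with H3K9ac, chosen after the values were seen, ran from 40.9% for MYB to 92% for VPS, the vacuolar sorting genes, at 23 of 25.

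The genes with the longest stretches are extremes of their class, picked by length, and not typical members. For the one-mark classes the rule also required no peak of the other mark in WT, so its 0 bp was set beforehand. Median covered lengths in protein-coding genes were 1020 and 1126 bp of H3K9ac with both marks and 1205 and 1297.5 bp with H3K9ac alone. For H3K14ac alone the median was 808 bp of H3K14ac. Of genes with both marks, those with the greatest length under all 3 libraries included BAM2, a receptor kinase of the shoot meristem, with 3663, 3200 and 3233 bp in H3K9ac replicate 1, replicate 2 and H3K14ac. ATSAC1, a phosphoinositide phosphatase, had 3189, 3424 and 3389 bp. XRCC4, of DNA end joining, had 4400, 4600 and 3000 bp. ORP3C, EMB1290 and ALDH10A8 completed the 6, with H3K14ac over 3274, 3226 and 3604 bp. In hda9-1 and pwr-2 the H3K14ac stretch over ORP3C was 834 and 634 bp, so that length did not recur.

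Genes with H3K9ac alone were led by SFP1, a sugar porter, with 5626 and 4826 bp and 0 bp of H3K14ac. SKU5, a cell wall protein of directional root growth, had 3949 bp in each replicate, its whole length (chromosome 4, 7349001 to 7356600 in replicate 1). PP2-A14, a phloem lectin-like protein, had 4074 and 4098 bp, BCA4, a carbonic anhydrase, 4577 and 4000 bp, and OPT4, an oligopeptide transporter, 4556 and 4000 bp. CNGC4, a cyclic nucleotide-gated channel, had 4966 and 4000 bp. H3K14ac stayed at 0 bp in both mutants over SFP1, PP2-A14 and BCA4. It covered 1000 and 800 bp of CNGC4, 400 and 0 bp of OPT4 and 1400 and 0 bp of SKU5 in hda9-1 and pwr-2.

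Genes with H3K14ac alone were led by CALS5, a callose synthase of the pollen wall, with 7400 bp of H3K14ac and 0 bp in both H3K9ac libraries. LON4, a protease, had 5000 bp in 1 peak (chromosome 3, 1720201 to 1725200). AGO9, an Argonaute protein of the ovule, had 4581 bp, ABCC6, an ABC transporter, 4200 bp, and ABCG28, an ABC transporter of pollen, 3813 bp. CESA10, a cellulose synthase subunit, had 4000 bp in 1 peak (chromosome 2, 10867001 to 10871000). In hda9-1 and pwr-2 the H3K14ac stretch was 4600 and 5400 bp over CALS5, 4400 and 3443 bp over LON4 and 0 and 2800 bp over CESA10. The 4 H3K9ac libraries of the mutants had no peak over these 6 genes except 990 bp of ABCC6 in hda9-1 replicate 2. The densities of the named peaks over LON4 and CESA10, at 37.0 and 35.0 reads per kb, were below the library median of 48.0. Density fell with width in this library (Spearman correlation -0.745). The H3K14ac peaks of the 6 genes with both marks named for length had 29.7 (ORP3C) to 46.0 (BAM2) reads per kb. Those genes were picked for length, and over whole classes the median was 37.9 reads per kb with H3K14ac alone and 46.4 with both marks. Of protein-coding genes with H3K14ac, 21.5% of the 25% with the lowest H3K14ac density had H3K9ac in no library. In the 25% with the highest density it was 5.03%. Whether low density accounts for the class was not tested.

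The WT classes recurred unevenly in the mutant libraries, which the sorting had not used. Genes with both marks in WT were marked by H3K9ac in 93.4% to 99.4% of cases over the 4 mutant libraries and by H3K14ac in 91.6% (hda9-1) and 93.0% (pwr-2). Genes with H3K9ac alone in WT kept H3K9ac in 89.3% to 96.1%, and H3K14ac marked 46.0% and 48.4% of them. Genes with H3K14ac alone in WT had H3K14ac in 58.3% and 59.8% and H3K9ac in 18.7% to 41.2%. Genes with neither mark in WT were marked in 6.07% to 9.42%. Of all genes, H3K14ac marked 37.9% in hda9-1 and 39.0% in pwr-2, and H3K9ac marked 42.9% to 49.9% over the 4 mutant libraries. In the mutants H3K14ac thus marked close to as many of the genes with H3K9ac alone as it left bare.

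**Figure D5:**
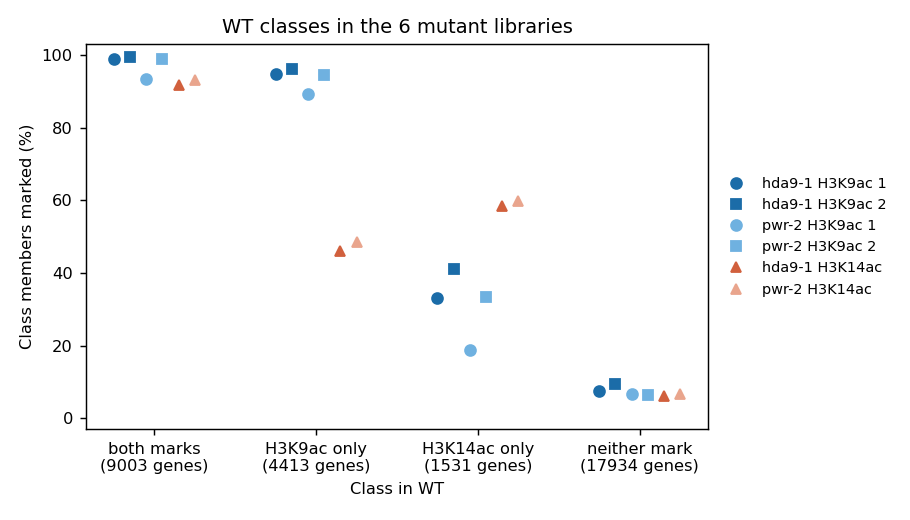
Share of the genes of each WT class (x axis, number of genes in brackets) that were marked (%, y axis) in the 6 mutant libraries, 1 point per library. Genes with both marks lie at 91.6% or more in all 6 libraries, and the genes with 1 mark lie between 18.7% and 59.8% for the mark they lacked or, for H3K14ac alone, for both marks.

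The mutant libraries differ from WT in genotype and also in reads, so these cannot be told apart. H3K9ac peaks held 12.3 and 18.2 M reads in hda9-1 and 3.76 and 8.87 M in pwr-2, against 1.95 and 2.22 M in WT. A core of each one-mark class was the same in every genotype. Of the 4413 genes with H3K9ac alone, 1418 (32.1%) had H3K9ac in all 4 mutant libraries and H3K14ac in neither mutant. Of the 1531 genes with H3K14ac alone, 734 (47.9%) had H3K14ac in both mutants. Of these 734, 248 had H3K9ac in no mutant library. That is 33.8% of the 734 and a smaller share of the 1531, so it does not compare with the 32.1%.

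Reads in peaks were compared over regions in which every library had a peak. Peaks of all 9 libraries were merged into 13530 regions, and WT H3K14ac was set against WT H3K9ac in the 6468 with a peak in each, by the quasi-likelihood test of edgeR. The reads of a region are those inside the peaks called in that library, so bases outside its peaks count for nothing, and a difference holds the called length as well as the density. H3K14ac had 1 WT library, and its spread was taken from the 3 pairs of H3K9ac libraries. On these terms 452 regions (6.99%) had relatively more H3K14ac reads and 904 (14%) relatively more H3K9ac reads at a Benjamini-Hochberg adjusted p under 0.05. Scaling by library totals shifted the median difference by 0.20 on the log2 scale and turned the balance to 825 and 687 regions, so 33.3% of called regions had more H3K14ac under the first scaling and 54.6% under the second. With the 3 WT libraries alone the counts were 189 and 584 of 7866 regions.

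These calls went with called length and were not made per covered bp. Regions with more H3K14ac reads had a median of 2200 bp under H3K14ac and 1000 bp under each H3K9ac library, and those with more H3K9ac reads had 1400 bp under H3K14ac and 5400 and 5200 bp under H3K9ac. Per covered bp, edgeR called 0 regions (0%) in either direction at an adjusted p under 0.05, with 1062 at an unadjusted p under 0.05 and a smallest adjusted p of 0.106. DESeq2, run on the reads only, called 360 and 843 regions. No difference in density was thus detected, and the calls are given as a description of how long a stretch each mark covered. Density was scaled to the median of each library, so only relative density was compared. On simulated data the comparison per covered bp found 8% of 1.5-fold increases and 30% of decreases to 0.5-fold, so smaller differences can be missed.

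The regions with the smallest p show such stretches, and their values belong to the region and not to 1 gene. In the region mostly over AT5G45113 (chromosome 5, 18231601 to 18239800, 3 genes), H3K14ac had 276 reads over 6800 bp, and the H3K9ac replicates had 56 and 53 reads over 400 bp each. In the region over TOR1, a microtubule-associated protein of straight growth, H3K14ac had 141 reads over 3600 bp and H3K9ac 83 and 95 reads over 1200 bp each. ECT10, an RNA-binding YTH-domain protein, and chr31, a chromatin remodelling gene, had the other 2 regions with more H3K14ac, covered over 1800 and 4800 bp by it. In the region around AT4G34750 (chromosome 4, 16577401 to 16599600, 11 genes), H3K14ac had 24 reads over 400 bp and H3K9ac had 1334 and 1300 reads over 19000 and 17600 bp. Per covered bp, the log2 difference between H3K14ac and H3K9ac was -0.76 in the AT5G45113 region and 0.73 in the AT4G34750 region, opposite in sign to the summed reads, and neither passed (adjusted p = 0.259 and 0.231, edgeR). The region around TPS8, a trehalose phosphate synthase-like gene, spanned 26600 bp and 6 genes, with 2000 bp under H3K14ac and 19600 and 16600 bp under H3K9ac. AT4G23895 and AT2G45670 lay in the other 2 regions with more H3K9ac.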

How the data were processed

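Bowtie, SICER and the build TAIR10 are named per the submitters' processing notes, without versions, and are taken as the mapper and the peak caller. Each deposited list holds, per peak, a position and a whole number, read as a count of reads in the peak. The lists have no header, and no source used here says whether the authors removed duplicates or subtracted inputs. Peaks were called per library.

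Positions are printed from 1 on TAIR10. Genes were those of RefSeq's TAIR10.1, used for names and gene extents only, and on every chromosome the share of peak bases in genes was higher unshifted than in any shifted copy tried. That annotation gives no strand, so the planned window after the start was replaced by its stated fallback, either end of the gene, and a planned motif search in promoters was not made.

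Regions were tested with edgeR 4.0.16 in R 4.3.3 (TMM factors, 1 coefficient per group, 9 libraries, no block, biological coefficient of variation 0.176), with DESeq2 1.42.0 as an alternative. On simulated data over 6468 regions the WT test found 4% of 1.5-fold, 44% of 2-fold and 100% of 4-fold increases, 8% of decreases to 0.5-fold, and called 3 of 6268 unchanged regions. Per covered bp it found 8%, 62%, 100% and 30%, and called 6 unchanged regions. The simulation gave every library, H3K14ac included, the same spread. It therefore cannot check whether H3K14ac varies like H3K9ac. The labels do not say whether replicates came from separate plantings, so p-values measure only the spread between these samples.

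The members and the 13 lists (184 genes, all matched) and 15 families were chosen with earlier results of these data known. Genes were named by rule: 6 per class with the greatest covered length and no peak of the absent mark, the main gene of the 4 regions with the smallest p per direction, and list members. Python 3.11.15 was used for the rest.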

Additional observations from a re-analysis of the deposited data

How the results depend on the processing

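Counts of genes per class moved with the definition of a peak and of a marked gene. Genes with both marks went from 9003 to 3097 with 50% of the whole gene covered, 5770 with 80% of the window, 5035 without the weakest 25% of peaks and 3207 at 10 Mb per library. At 10 Mb, H3K9ac alone went to 2021 and H3K14ac alone to 2953. Leaving out 1 H3K9ac replicate gave H3K14ac alone 2026 to 2732. Genes with neither mark were 10034 among protein-coding genes.

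The share of H3K14ac bases in H3K9ac went from 56.0% to 50.8% without the weakest peaks, 29.8% at 10 Mb and 62.3% to 67.9% with 1 replicate. The share of H3K9ac bases under H3K14ac went from 50.7% to 43.4% without the weakest peaks and 40% to 42.6% with 1 replicate. H3K14ac peaks overlapping H3K9ac were 72.0% at 10 Mb and 80.5% to 86.5% with 1 replicate. Median width of H3K9ac peaks was 1500 bp for peaks of at least 600 bp, 1200 bp without the weakest and 1000 bp at 10 Mb, and that of H3K14ac was 800 bp without the weakest and 1000 bp at 10 Mb.

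Regions with relatively more H3K14ac and H3K9ac reads were 0 and 0 per covered bp, 825 and 687 under library totals, and 189 and 584 with the WT libraries alone. Without 1 H3K9ac replicate they were 347 to 416 and 794 to 839, the lone replicate being assumed to vary like the other groups. The causes were not tested. The other 64 values stayed within 1.5 times the reported count or within the spread between replicates. The 8 alternatives for the photosynthesis genes were chosen after seeing the data.

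No paired analysis was possible because the H3K14ac libraries carry no replicate number to pair with H3K9ac. A replicate block among the H3K9ac libraries, added after seeing the data, gave 471 and 929 regions. Replicate deviations correlated at 0.0693 (WT with hda9-1), 0.171 and 0.188 across regions, so the libraries were taken to share only a number. The first 500 bp of the gene as a window was not run, since the annotation used gives no strand. The few reads in H3K14ac peaks limit what its absence at a gene can show.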
